A study of Arabidopsis thaliana with 6 samples.

Results

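The genes of jasmonate synthesis, signalling and response were followed as 35 Arabidopsis thaliana genes, chosen by locus from the pathway and not from their values. Every isoform of these genes in the deposited tables was taken, which gave 54 transcript windows of 39087, from 35 genes of 31109. A window is the stretch of 500 bases past the annotated 3' end of a transcript, and its value is the number of reads counted there. It carries the name of the gene upstream, but its reads can come from a neighbouring gene on either strand. A higher or lower window therefore stands for reads past the gene's end and not for expression of that gene. Past a shorter isoform, the window can also cover exons of a longer isoform of the same gene. By role, 10 genes make or activate jasmonate, 5 act in perception, transcription and repressor recruitment, 10 encode JAZ repressors and 10 respond to the hormone.

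Jasmonate is made from linolenic acid, which lipoxygenases (LOX), allene oxide synthase (AOS) and allene oxide cyclases (AOC) convert in the plastid and OPR3 reduces in the peroxisome. JAR1 joins jasmonate to isoleucine, and the conjugate brings the F-box protein COI1 together with JAZ repressors, which are then degraded. JAZ proteins hold back MYC transcription factors through the adaptor NINJA. In leaves the MYC branch drives wound genes such as VSP1 and VSP2, while ERF1 and ORA59, which also respond to ethylene, drive the antifungal defensins of the PDF1.2 group.

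All plants were 9-day-old seedlings of the Col-0 ecotype with no treatment named in the labels. Seedlings of 3 lines were sequenced with 2 libraries each: the wild type (WT), the nerd-1 mutant and the cpsf30-1 mutant. NERD works in silencing by small RNAs and DNA methylation, and CPSF30 belongs to the machinery for mRNA cleavage and polyadenylation. Each mutant is represented by 1 allele, and the labels do not say how many seedlings went into a library or whether libraries came from separate growths. The p-values therefore measure the spread between these libraries, which may be technical, and in bulk seedlings fewer cells of a type and less RNA per cell cannot be told apart.

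Summed over all windows, the libraries held 11793952 to 18569498 counts, the highest being WT replicate 2. In CPM, which are counts scaled to a common library size by TMM-scaled totals over 1 transcript per gene, a count of 0 in a library allows up to 0.226 to 0.339, from 3 counts and for counting error only. As a check of the labels, the window past isoform 2 of CPSF30 held 43 and 49 counts (WT), 66 and 58 (nerd-1) and 1 and 0 (cpsf30-1). Of that window, 373 bases lie on CPSF30's own exons. The window past NERD held 3 counts in 1 cpsf30-1 library and none elsewhere, so it checks nothing. Windows past shoot markers and root markers both held reads, such as 12566 to 43813 counts past LHCB2.1 and 122 to 199 past CASP1. All 500 bases of the CASP1 window lie on exons of AT2G36090 on the other strand. The windows past the root markers EXP7, TIP2-3 and PYK10 also overlap other genes. Reads in these root marker windows may therefore belong to neighbouring genes and do not show root RNA. The root marker windows with no other annotated gene, past COBL9 and IRT1, held at most 2 counts in a library. Of 5 shoot marker windows, 1 was called in cpsf30-1 against WT, that past CA1, with 98 and 225 counts against 35 and 34 in WT (log2 2.24, adjusted p = 0.0270, edgeR). Those past GAPA, PSBO1 and LHCB2.1 gave log2 differences of 1.84, 0.37 and -0.42 without passing. The window past RBCS1A split the libraries within genotypes, with 2736 and 5 counts (WT), 3 and 1 (nerd-1) and 4515 and 86 (cpsf30-1). The part of these differences in the results was not tested.

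The hexamer AATAAA is the best-known form of the signal that marks where a transcript is cleaved, and in mammals CPSF30 is one of the subunits that contact it. On the gene's strand it was found in 20 of the 35 member windows (57.1%), against 45% of 30618 windows over all genes and 52.9% of 13927 windows with no other annotated gene. On either strand, counting TTTATT as well, the shares were 82.9%, 67.4% and 78.7%. The first match is shown in capitals for 5 windows chosen as examples after their values were seen: AOC2, NATA1 and MYC4, where both cpsf30-1 libraries lay above WT, NINJA, where they lay below, and MYC3, which held the most reads. The letters are those of the TAIR10.1 reference from RefSeq, read 5' to 3' on the gene's strand.
AOC2 chr3:9408072-9408101, plus strand: aaatcaAATAAAaagaactattaaataatg
NINJA chr4:14263875-14263904, minus strand: tacttaatagttAATAAAttgataatgttg
NATA1 chr2:16299362-16299391, plus strand: tcttagtattgtAATAAAattaagaaaaac
MYC4 chr4:9932958-9932987, minus strand: accctttaaaaaAATAAAaaaaaatcaata
MYC3 chr5:18976984-18977013, plus strand: ttaagttttcatAATAAAttgaaaaatact
The match began at base 7 of the AOC2 window, 142 of the NINJA window, 169 of the NATA1 window, 351 of the MYC4 window and 406 of the MYC3 window. The windows past PDF1.2a, PDF1.2b and PDF1.2c held no AATAAA on the gene's strand. Nor did those past isoform 1 of OPR3 and past AOC4, where both cpsf30-1 libraries also lay above WT. These matches describe letters only and show no site in use.

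The window past the defensin gene PDF1.2b was the 1 member window called in cpsf30-1 against WT, where it was 75.9-fold lower in the fit (adjusted p = 0.00691, edgeR). It was also lower in cpsf30-1 than in nerd-1, by 21.0-fold (adjusted p = 0.0258, edgeR), and no member window passed the test between nerd-1 and WT. With 1 transcript per gene, 14 of the 35 member windows (40%) held enough reads to be tested, beside 45.5% of all windows, and 13 of the others held 10 counts or fewer over the 6 libraries together. Of the 35 windows, 23 had no other annotated gene, of which 5 were tested (21.7%, beside 13.9% of all such windows). Another 5 overlapped genes on the other strand only, of which 4 were tested (80.0% beside 74.4%), and 7 overlapped a gene on the same strand, of which 5 were tested (71.4% beside 69.9%).

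Against WT, 1 of the 14 tested member windows was called lower in cpsf30-1 and 0 higher, beside 10.3% of all 14151 tested windows called (2.85% lower, 7.41% higher). In nerd-1 against WT 0 of 14 were called by edgeR, beside 0.0424% of all windows (0.0353% lower, 0.00707% higher). DESeq2 called 0 of 14, beside 146 of all 14151. With edgeR 2 of 14 had an unadjusted p under 0.05, beside 1390 of all 14151. In cpsf30-1 against nerd-1, 1 of 14 was called lower and 0 higher, beside 10.6% called over all windows (3.24% lower, 7.38% higher). Over all deposited transcripts, 22 member windows of 16 genes were tested. There 1 was called lower in cpsf30-1 against WT (11.2% of all called, 3.36% lower and 7.87% higher) and 2 were called lower in cpsf30-1 against nerd-1 (11.1% called, 3.64% lower and 7.42% higher). Between nerd-1 and WT 0 were called by edgeR (0.0518% of all called, 0.0415% lower and 0.0104% higher) and 0 by DESeq2. With edgeR 3 of these 22 had an unadjusted p under 0.05, beside 1911 of all 19294. With 1 transcript per gene, the median log2 difference of the tested members was -0.32, -0.26 and -0.32 in these 3 comparisons, beside -0.01, -0.01 and 0.04 over all tested windows. A negative value was found in 11, 9 and 9 of the 14 members, beside 50.7%, 51.3% and 47.8% of all tested windows. The comparisons share libraries, so they are not independent of each other.

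**Figure D1:**
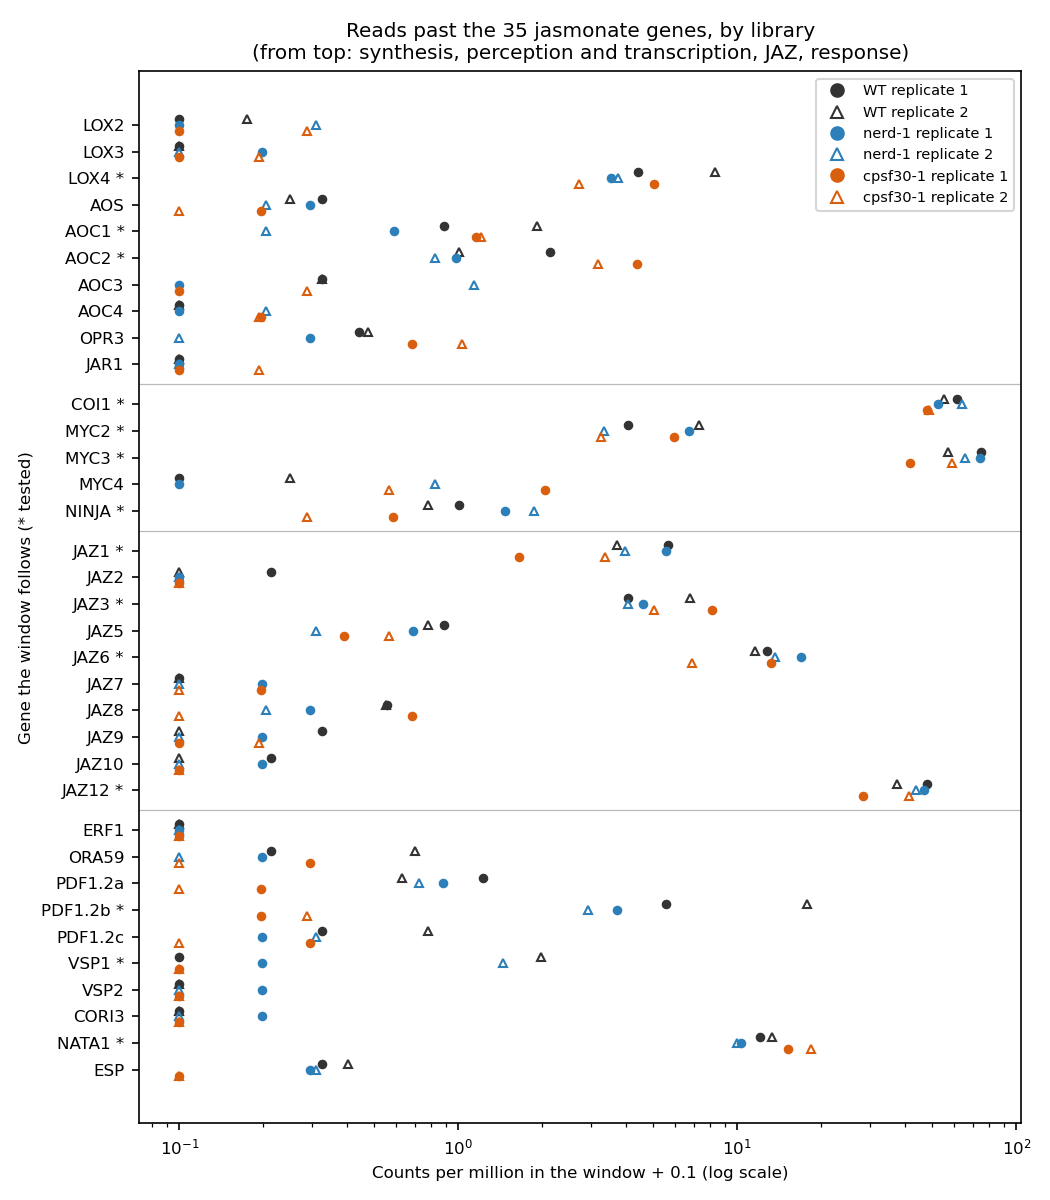
Reads in the window past each of the 35 genes (1 transcript per gene), in CPM plus 0.1 on a log scale, with 1 point per library and an asterisk for the 14 tested windows. The windows past COI1, MYC3 and JAZ12 sit far right in every library, the cpsf30-1 points of PDF1.2b and PDF1.2a lie left of all others, and the 13 genes with 10 counts or fewer stay in the left part, with 0 drawn at the left edge.

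Among the synthesis genes, 3 of 10 windows were tested and none was called. At the lipoxygenase step, LOX2 (AT3G45140), the main wound lipoxygenase of leaves, held 0 and 1 counts (WT), 0 and 2 (nerd-1) and 0 and 2 (cpsf30-1). LOX3 (AT1G17420) held 2 counts in all. The LOX4 (AT1G72520) window held 38 and 109 counts (WT), 35 and 35 (nerd-1) and 51 and 28 (cpsf30-1), but 303 of its bases lie on exons of AT1G72530. Its groups overlapped between WT and cpsf30-1, and its log2 difference was -0.74 (SE 0.450, adjusted p = 0.336, edgeR). AOS (AT5G42650), the single gene of its step, held 2 and 2 counts (WT), 2 and 1 (nerd-1) and 1 and 0 (cpsf30-1), too few to test.

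The AOC genes make 1 small family of cyclases, and AOC1 (AT3G25760), AOC2 (AT3G25770) and AOC3 (AT3G25780) lie one after another on chromosome 3. The window past AOC2 (chr3:9408072-9408571) has no other annotated gene and held 18 and 12 counts (WT), 9 and 7 (nerd-1) and 44 and 33 (cpsf30-1). Both cpsf30-1 libraries lay above all others, at 3.66 ± 0.846 CPM (SD, n = 2) where WT reached 1.47 ± 0.802 and nerd-1 0.803 ± 0.106. The difference did not pass the test against WT (2.54-fold higher, log2 1.34, SE 0.538, adjusted p = 0.156) and missed it narrowly against nerd-1 (4.49-fold, log2 2.17, SE 0.573, adjusted p = 0.0558, both edgeR). Against nerd-1 it did pass with DESeq2, at an adjusted p of 0.0323.

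The neighbouring windows did not follow the same order. AOC1 held 7 and 24 counts (WT), 5 and 1 (nerd-1) and 11 and 12 (cpsf30-1). Both nerd-1 libraries lay below WT, by a log2 difference of -2.10 (SE 0.824), which did not pass the test (adjusted p = 0.469, edgeR), while cpsf30-1 lay between the WT libraries. AOC3 held 2 and 3 counts (WT), 0 and 10 (nerd-1) and 0 and 2 (cpsf30-1). AOC4 (AT1G13280), on chromosome 1, held 1 count in each of 3 libraries and none in the others. Of the window sequences of the AOC family, none found a match elsewhere in the genome in the blastn search.

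OPR3 (AT2G06050), the reductase of the peroxisomal step, has 3 isoforms in the tables. The windows past isoforms 1 and 2 held 3 and 5 counts (WT), 2 and 0 (nerd-1) and 6 and 10 (cpsf30-1). The window past isoform 3 begins further upstream and covers the end of the longer OPR3 models. It held 54 and 120 counts (WT), 33 and 34 (nerd-1) and 45 and 37 (cpsf30-1). Both mutants lay below both WT libraries there, by a log2 difference of -1.16 in nerd-1 (SE 0.335, adjusted p = 0.365) and -1.01 in cpsf30-1 (SE 0.331, adjusted p = 0.0947, both edgeR over all transcripts), and neither passed the test. The deposited isoforms of OPR3 thus differ in which library is highest, and isoforms 1 and 3 overlap the pseudogene AT2G06045 on the other strand.

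JAR1 (AT2G46370), which makes the active conjugate, had isoform windows that differed in how many reads they held. Its isoforms 1, 2 and 3 held 1 count in all, in a cpsf30-1 library. Isoform 4, whose window begins upstream of the others, held 73 and 79 counts (WT), 88 and 47 (nerd-1) and 87 and 104 (cpsf30-1). Of that window, 238 bases lie on JAR1's own exons, so its reads need not lie past the gene's end. In CPM the cpsf30-1 libraries lay above WT and overlapped nerd-1, at 9.03 ± 0.870 against 7.10 ± 1.64 in WT (SD, n = 2), a log2 difference of 0.32 that did not pass (SE 0.344, adjusted p = 0.596, edgeR over all transcripts).

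Of the 5 genes of perception, transcription and repressor recruitment, 4 were tested and none was called with 1 transcript per gene. The window past the receptor gene COI1 (AT2G39940) was among the best read, with 542 and 732 counts (WT), 535 and 614 (nerd-1) and 493 and 525 (cpsf30-1). Its CPM were 61.3 and 55.1, 52.2 and 63.9, and 47.7 and 48.7, so cpsf30-1 lay below the others by a log2 difference of -0.27 from WT (SE 0.184, adjusted p = 0.391, edgeR). All 500 bases of this window lie on exons of ISA1, a starch debranching enzyme on the other strand, and 286 on a noncoding RNA on the same strand.

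MYC2 (AT1G32640), the main activator of the wound branch, held 35 and 96 counts (WT), 68 and 31 (nerd-1) and 60 and 34 (cpsf30-1). Of its window, 206 bases lie on exons of AT1G32630 on the other strand. The 3 genotypes overlapped, and the log2 differences from WT were -0.33 in cpsf30-1 (SE 0.501, adjusted p = 0.720) and -0.19 in nerd-1 (adjusted p = 0.913, both edgeR). The direction of both turned when WT replicate 2 was left out. MYC3 (AT5G46760), a relative that acts beside MYC2, had the most reads of all member windows, 41.5 to 74.8 CPM. Its window has no annotated gene, and the next one, AT5G46770, begins 309 bases beyond it on the same strand. In cpsf30-1 it held 41.5 and 58.9 CPM against 74.8 and 56.6 in WT, which overlap (log2 -0.39, SE 0.233, adjusted p = 0.335, edgeR).

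The MYC4 (AT4G17880) window was too low to test but showed another order. It held 0 and 2 counts (WT), 0 and 7 (nerd-1) and 20 and 5 (cpsf30-1), so nerd-1 and cpsf30-1 overlapped. Over both libraries the cpsf30-1 total of 25 counts stood against 2 in WT, a WT level 0.0763 of that of cpsf30-1 with a 95% counting interval of 0.00876 to 0.306. That interval covers counting error only, and 20 of the 25 counts came from 1 library.

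NINJA (AT4G28910), the adaptor between JAZ proteins and a corepressor, had the clearest spread over genotypes among these 5. Isoforms 1 and 2 held 8 and 9 counts (WT), 14 and 17 (nerd-1) and 5 and 2 (cpsf30-1). Isoform 3, with a window that starts slightly upstream and has 59 bases on NINJA's own exons, held 8 and 10, 19 and 18, and 3 and 2. The 3 genotypes did not overlap in either window, with nerd-1 above WT and cpsf30-1 below it. In the fit over all transcripts, isoform 3 fell 7.80-fold in cpsf30-1 against nerd-1 (log2 -2.96, SE 0.625, adjusted p = 0.0295, edgeR), where 2 of 22 member windows were called beside 11.1% of 19294. For isoform 1 the same comparison gave a log2 difference of -2.19 (SE 0.689, adjusted p = 0.0867), and neither mutant passed the test against WT. The counts are small, the call was lost without any 1 of the 4 nerd-1 or cpsf30-1 libraries (adjusted p from 0.118 to 0.254), without WT replicate 1 (0.0618) or 2 (0.0598) with the filter redone, and with the replicate block (0.0820), and 297 bases of the window match another place in the genome at 99.3% identity. The match lies near AT4G28900, a pseudogene that also overlaps the window, so reads of the copies may be divided between them.

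The JAZ repressors gave no call among 4 tested windows of 10. The JAZ12 (AT5G20900) window held 37.4 to 47.9 CPM in WT and nerd-1 and 28.2 and 41.1 in cpsf30-1, with a log2 difference of -0.30 from WT (SE 0.256, adjusted p = 0.502, edgeR). Of its bases, 419 lie on exons of AIP2 on the other strand. JAZ6 (AT1G72450) ranged from 6.77 CPM in cpsf30-1 replicate 2 to 16.8 in nerd-1 replicate 1, and 468 bases of its window lie on EDA25 on the same strand. JAZ1 (AT1G19180) held 5.54 and 3.61 CPM (WT), 5.47 and 3.85 (nerd-1) and 1.55 and 3.25 (cpsf30-1). Both cpsf30-1 libraries lay below all others, by a log2 difference of -0.92 from WT (SE 0.473) that did not pass (adjusted p = 0.261, edgeR). Of the JAZ1 window, 298 bases lie on AT1G19190 and 48 on JAZ1's own exons. JAZ3 (AT3G17860) held 3.95 to 8.03 CPM, with cpsf30-1 overlapping WT and above nerd-1 (log2 0.61, SE 0.392, adjusted p = 0.344, edgeR). In the JAZ3 window, 204 bases lie on exons of TDX on the same strand.

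The other 6 repressor genes held few reads. JAZ5 (AT1G17380) held 7 and 9 counts (WT), 6 and 2 (nerd-1) and 3 and 5 (cpsf30-1), in a window with 423 bases on UBP1B. JAZ2 (AT1G74950), JAZ7 (AT2G34600), JAZ8 (AT1G30135) and isoform 1 of JAZ10 (AT5G13220) held 1, 2, 19 and 2 counts over all 6 libraries, and JAZ9 (AT1G70700) held 4. The windows past isoforms 2, 3 and 4 of JAZ10 held 18, 5 and 1. The same position was rebuilt for isoforms 1, 2 and 3, so it does not account for their different counts. With 1 transcript per gene, for JAZ2, JAZ7, JAZ8, JAZ10 (isoform 1), and also JAR1, VSP2 (AT5G24770) and CORI3 (AT4G23600), every library with a count had no lower count in any of the 9 consecutive windows around the gene. Whether such reads are shared along a stretch of the chromosome was not tested. In JAZ8 this held for all 19 counts, and its window also matches 3 other places at 95% identity or more.

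In both comparisons with cpsf30-1, the largest fitted differences among the tested members lay past the response genes VSP1 and PDF1.2b, while in nerd-1 against WT that past AOC1 was the largest. PDF1.2b (AT2G26020) encodes a plant defensin of the branch driven by jasmonate with ethylene, and its window (chr2:11089806-11090305) has no other annotated gene. It held 48 and 235 counts (WT), 37 and 27 (nerd-1) and 1 and 2 (cpsf30-1). In CPM this was 5.43 and 17.7 (WT), 3.61 and 2.81 (nerd-1) and 0.0968 and 0.186 (cpsf30-1). The 3 genotypes did not overlap, with WT highest and cpsf30-1 near 0. Over both libraries WT stood at 90.0 times the level of cpsf30-1 by counts, with a 95% counting interval of 30.5 to 439, and nerd-1 at 22.7 times (7.42 to 113).

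In the fit, the PDF1.2b window fell in cpsf30-1 by 6.25 on the log2 scale against WT (SE 0.821, adjusted p = 0.00691, edgeR). Against nerd-1 its log2 difference was -4.39 (SE 0.876, adjusted p = 0.0258). In nerd-1 the log2 difference from WT was -1.86 (SE 0.556), which did not pass (adjusted p = 0.367, unadjusted p = 0.0118). The WT libraries differed 3.25-fold from each other, and without WT replicate 2 the log2 difference between nerd-1 and WT was -0.75. Against cpsf30-1 the WT library left out set the size but not the call, with -5.18 without WT replicate 2 and -6.87 without WT replicate 1. With the low-count filter redone, the call against WT was lost without cpsf30-1 replicate 1 (adjusted p = 0.0658) or replicate 2 (adjusted p = 0.0661), while on the same windows as before it passed in both cases (0.0494 and 0.0478). The call against nerd-1 was lost without any 1 of the nerd-1 or cpsf30-1 libraries (adjusted p from 0.0900 to 0.178) and with the replicate number as a block (0.0513).

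The other defensin windows held fewer reads. PDF1.2a (AT5G44420), on chromosome 5, held 10 and 7 counts (WT), 8 and 6 (nerd-1) and 1 and 0 (cpsf30-1). Its cpsf30-1 libraries lay below all others, and WT stood at 16.2 times cpsf30-1 with a counting interval of 2.54 to 678, while WT and nerd-1 overlapped (1.09 times, interval 0.505 to 2.39). It was too low to be tested, and its window ends 34 bases short of the transcribed pseudogene AT5G44418. PDF1.2c (AT5G44430) held 2 and 9 counts (WT), 1 and 2 (nerd-1) and 2 and 0 (cpsf30-1), and in CPM the nearest libraries of WT and the mutants stood at 0.226, 0.208 and 0.194. The windows of PDF1.2a and PDF1.2c found no match elsewhere, and the best match of PDF1.2b, at 78.2% identity, lay between PDF1.3 and PDF1.2b. ORA59 (AT1G06160), an activator of these defensins, held 1 and 8 counts (WT), 1 and 0 (nerd-1) and 2 and 0 (cpsf30-1), and ERF1 (AT3G23240) held none in any library.

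Few reads lay past the MYC-branch genes VSP1 and VSP2, and only the VSP1 window was tested. VSP2 held 1 count, in nerd-1 replicate 1. VSP1 (AT5G24780) held 0 and 25 counts (WT), 1 and 13 (nerd-1) and 0 and 0 (cpsf30-1), so nearly all its reads lay in replicate 2 of WT and of nerd-1. Summed over both libraries, WT was at least 3.97-fold higher than cpsf30-1 and nerd-1 at least 2.48-fold, with 3 counts per library taken for the zeros, and the fit passed for neither (adjusted p = 0.210 and 0.251, edgeR). CORI3, a cystine lyase induced by jasmonate, held 1 count. ESP (AT1G54040), which steers glucosinolate breakdown towards nitriles, held 2 and 4 counts (WT), 2 and 2 (nerd-1) and 0 and 0 (cpsf30-1), in a window with 401 bases on the pseudogene AT1G54035.

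NATA1 (AT2G39030), an acetyltransferase that turns ornithine into a defence metabolite, was the third response gene tested. Its window held 106 and 175 counts (WT), 105 and 95 (nerd-1) and 156 and 197 (cpsf30-1). In CPM the 3 genotypes did not overlap, with cpsf30-1 highest at 16.7 ± 2.25 (SD, n = 2), where WT reached 12.6 ± 0.828 and nerd-1 10.1 ± 0.260. The log2 difference was 0.41 from WT (SE 0.199, adjusted p = 0.237) and 0.73 from nerd-1 (SE 0.201, adjusted p = 0.0631, both edgeR), and neither passed. Of the window, 464 bases lie on exons of AT2G39040, which runs towards NATA1 on the other strand.

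**Figure D2:**
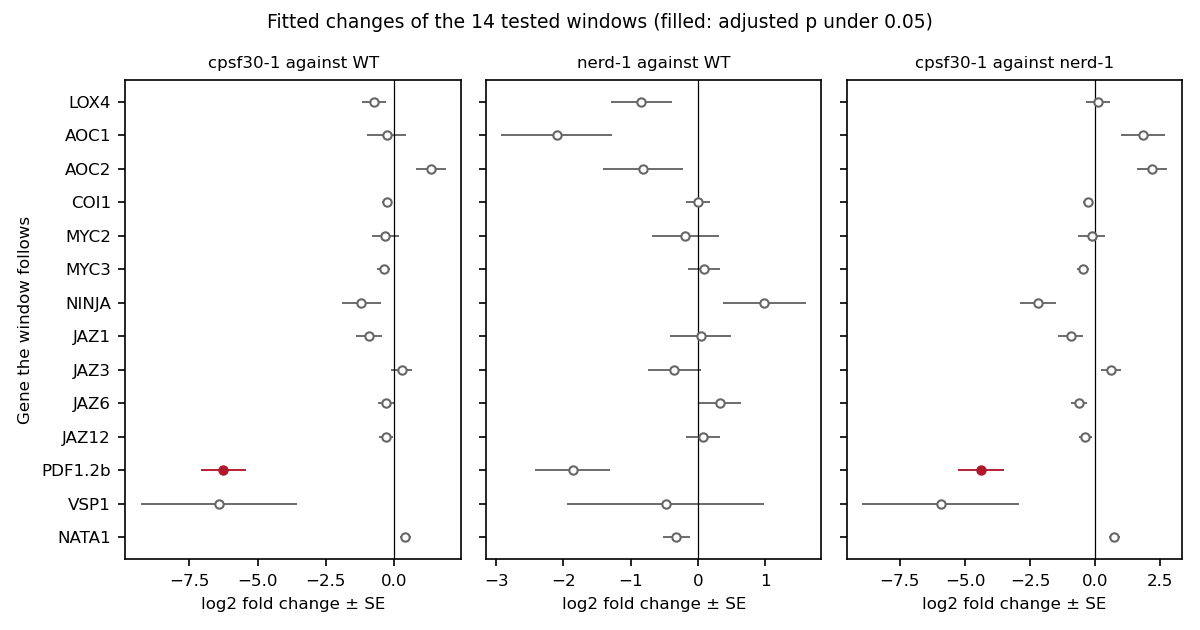
Fitted log2 difference and its SE for each of the 14 tested windows in the 3 comparisons, each with its own horizontal scale, with filled points for an adjusted p under 0.05. PDF1.2b is filled at -6.25 and -4.39, while VSP1 lies as far left with an SE of 2.86 and 3.02 and is not filled.

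Some windows named for other genes lie on the exons of the jasmonate genes, so they may carry reads of the transcripts themselves. There were 6 member genes with such a window, and they were read with earlier results of these data known. Since the strand setting of the authors' counting is not given in the sources used here, reads of the member and of its neighbour cannot be told apart in them.

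The window past the pseudogene AT2G06045 (chr2:2359114-2359613) lies with all 500 bases on OPR3 exons, on the other strand. The libraries gave 588 and 988 counts (WT), 385 and 372 (nerd-1) and 404 and 374 (cpsf30-1). In CPM, WT reached 70.4 ± 5.51, nerd-1 38.1 ± 0.786 and cpsf30-1 36.9 ± 3.11 (SD, n = 2). Both mutants lay below both WT libraries. In cpsf30-1 the window fell 1.91-fold against WT (log2 -0.93, SE 0.185, adjusted p = 0.0241, edgeR). In nerd-1 the difference was nearly as large, 1.85-fold (log2 -0.88, SE 0.185), and did not pass with edgeR (adjusted p = 0.202) but did with DESeq2 (adjusted p = 0.0137). The mutants differed from each other by -0.05 on the log2 scale (adjusted p = 0.887). The cpsf30-1 call was lost without any 1 of the mutant libraries, both with the filter redone and on the same windows as before. Without WT replicate 2 it was lost with the filter redone. The log2 difference stayed between -1.04 and -0.88 without 1 library. The call was also lost with the replicate block (adjusted p = 0.0809) and with only the 4 libraries compared (0.0794, both edgeR).

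The window past AT2G39040 (chr2:16298742-16299241) has 464 bases on NATA1 exons. It held 63 and 152 counts (WT), 35 and 29 (nerd-1) and 12 and 1 (cpsf30-1), which do not overlap. It fell 14.8-fold in cpsf30-1 against WT (log2 -3.89, SE 0.732, adjusted p = 0.0200, edgeR), while nerd-1 stood 2.89-fold lower than WT without passing (log2 -1.53, SE 0.612, adjusted p = 0.480). The cpsf30-1 libraries set the size, with -6.50 without cpsf30-1 replicate 1 and -3.07 without replicate 2. With the filter redone the call was lost without WT replicate 2 (0.0638), nerd-1 replicate 1 (0.0746) or 2 (0.0708) or cpsf30-1 replicate 2 (0.0522), and it was lost with the replicate block (0.0619). The window past AT2G39040 was lowest in cpsf30-1, while the window past NATA1 was highest there. Reads of NATA1 and of AT2G39040 cannot be told apart in either window, and the difference between both windows was not tested.

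**Figure D3:**
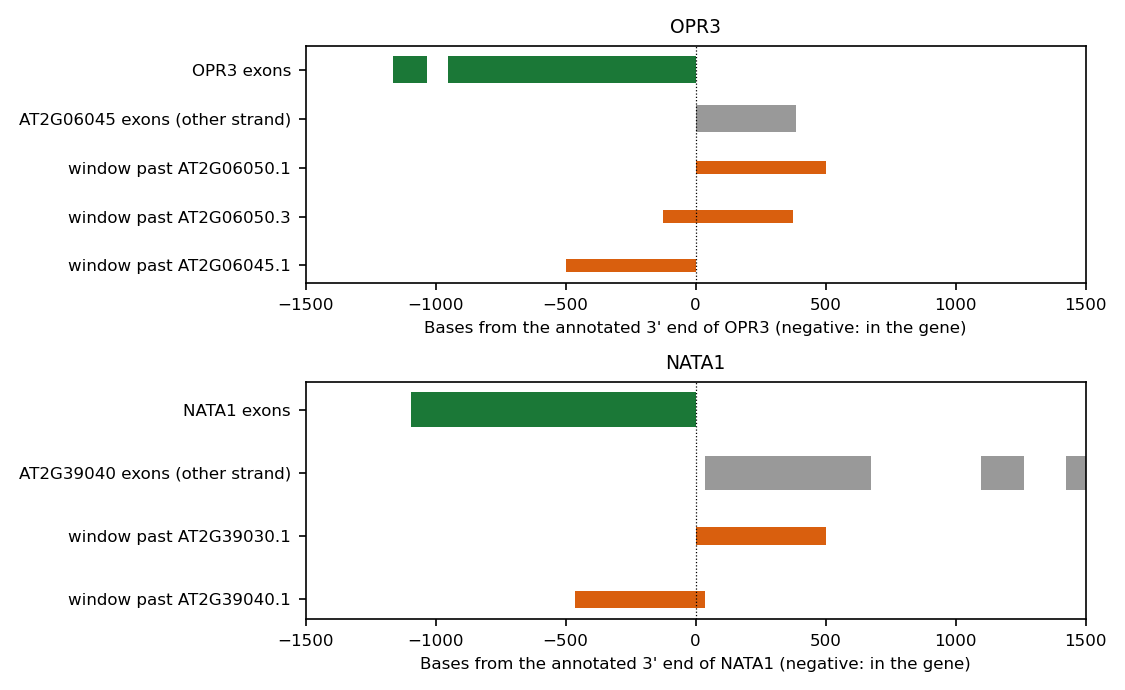
Position of the windows around OPR3 and NATA1, in bases from the annotated 3' end of each gene, with the gene's exons in green, the facing gene's exons in grey and the counted windows in orange. The window past AT2G06045.1 covers 500 bases of OPR3 exons and that past AT2G39040.1 covers 464 bases of NATA1 exons.

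The remaining 4 windows of this kind gave no call. On AOC4 exons (471 bases of the window past MAP1C) the counts were 1064 and 910 (WT), 870 and 761 (nerd-1) and 382 and 666 (cpsf30-1), the lowest (log2 -0.93 from WT, SE 0.323, adjusted p = 0.112, edgeR). On COI1 exons (500 bases past ISA1) all 6 libraries lay between 41.1 and 51.7 CPM, with log2 differences from WT of 0.08 and 0.18 in cpsf30-1 and nerd-1. On JAZ12 exons (407 bases past AIP2) the log2 differences were -0.37 (SE 0.149, adjusted p = 0.162) and -0.24 (SE 0.149, adjusted p = 0.625). On NINJA exons (171 bases past AT4G28900) the genotypes overlapped, with 12 and 56 counts (WT), 36 and 49 (nerd-1) and 73 and 21 (cpsf30-1).

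**Figure D4:**
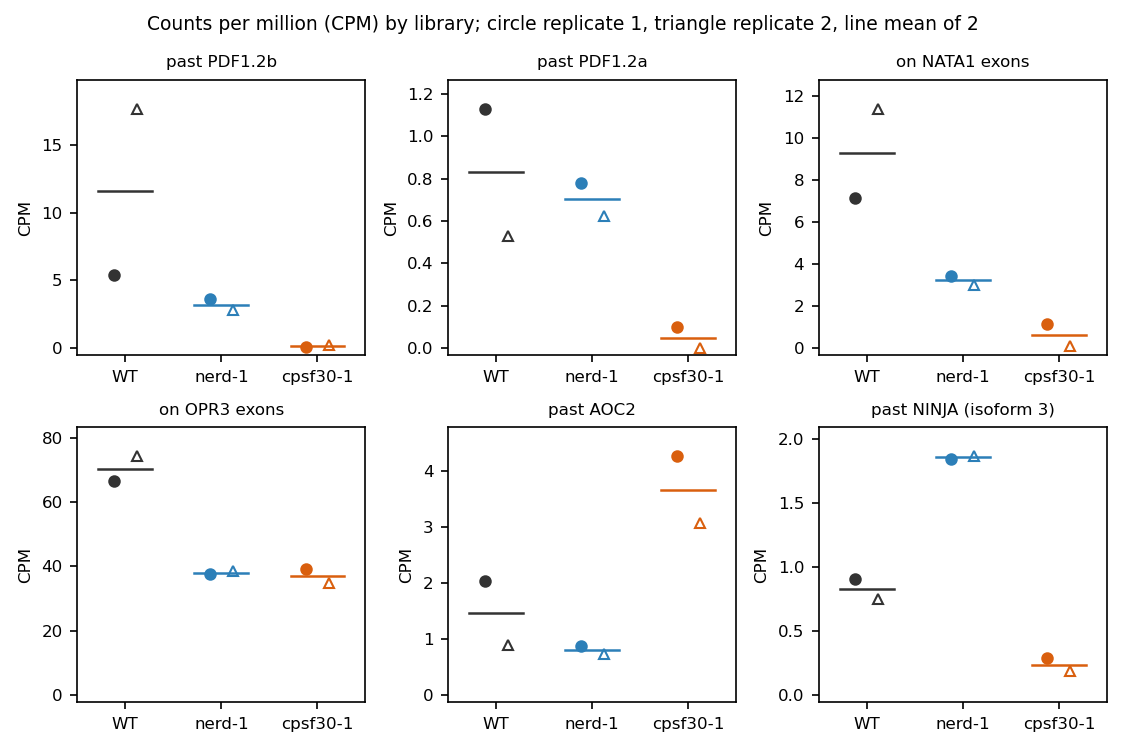
CPM by library for 6 windows, with a circle for replicate 1, a triangle for replicate 2 and a line for the mean of 2. On OPR3 exons the mutants sit at 38.1 and 36.9 on average, below WT, on NATA1 exons and past PDF1.2b WT is highest and cpsf30-1 lowest, past AOC2 cpsf30-1 is highest, and past NINJA isoform 3 nerd-1 is highest.

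Other genes of the pathway gave no further call with edgeR. Of 46 such genes (further oxidases, jasmonate-inactivating enzymes, corepressors, MED25 and more defensins among them), 14 windows were tested and 0 were called in each of the 3 comparisons, with 2 at an unadjusted p under 0.05 in each. DESeq2 called 1, 0 and 1 of them in cpsf30-1 against WT, nerd-1 against WT and cpsf30-1 against nerd-1. Over all 14151 tested windows, edgeR called 10.3%, 0.0424% and 10.6% in the same order, and DESeq2 called 2009, 146 and 1981 windows. The median log2 differences of the 14 pathway windows were -0.14, 0.08 and -0.01 in that order.

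The spread between the WT libraries bears on several of these values. Over all tested windows the log2 ratio of the replicates had an SD of 0.826 in WT, 0.538 in nerd-1 and 0.646 in cpsf30-1. Of the 14 tested members, 7 were higher in WT replicate 2, near the 50.2% of all windows. VSP1, at 0 and 25 counts, differed most. PDF1.2b, AOC1, LOX4 and MYC2 were higher in replicate 2 as well, by 3.25-, 2.28-, 1.91- and 1.82-fold in CPM, while AOC2 and JAZ1 were lower, at 0.443 and 0.651 of replicate 1. Among untested members PDF1.2a was lower in replicate 2 too, at 0.465 of replicate 1, the opposite of PDF1.2b.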

How the data were processed

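Per the labels, RNA was DNase-treated, polyA-selected and made into stranded paired-end libraries. Per the submitters' processing notes, the TAIR10 build was used, with TopHat2 2.0.7, Bowtie2 2.3.4, Cuffdiff and Cufflinks 2.2.1. How the authors counted reads, and with what strand setting, was not given in the sources used here. What the authors deposited is raw counts for each transcript, in a window of 500 bases after its 3' end according to the file names. Positions were rebuilt from TAIR10.1 gene models, which placed 38527 transcripts and left 560, so they are approximate.

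Each gene was represented by its transcript that ends farthest downstream (lowest isoform number in ties). Counts were tested with edgeR 4.0.16 (limma 3.58.1, R 4.3.3): low windows were filtered by expression, which left 14151 of 31109, libraries were scaled by TMM (factors 0.958 to 1.05), and a two-sided quasi-likelihood F-test was fitted jointly over 6 libraries and 3 genotypes (3 residual degrees of freedom). Calls are Benjamini-Hochberg adjusted p under 0.05 over all windows tested. A second fit took all 19294 testable transcripts and is named where used. CPM are counts over TMM-scaled totals, SD comes from 2 libraries, and SE is that of the log2 difference. Ratios of summed counts carry an exact 95% binomial counting interval. The code was tested on simulated counts with 2 libraries per genotype. DESeq2 1.42.0 was an alternative.

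Members were chosen by locus and not from their values, but members and lists were set with earlier results of these data known. Counts per library are given for members called in either fit, for those with both mutant libraries on 1 side of both WT libraries, at least 2-fold and with 10 counts in a library, and for COI1, MYC2, AOS, LOX2, VSP2 and PDF1.2a. Values of other members were added after they were seen. Replicate numbers come from the labels, which name no shared batch, and do not pair the samples.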

Additional observations from a re-analysis of the deposited data

How the results depend on the processing

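The window past PDF1.2b kept its sign under every alternative run. Over all windows, cpsf30-1 against WT gave 1453 calls, and 2807 with no filter, 893 with only the 4 libraries compared, 592 with the replicate block, 345 at an adjusted p under 0.01 and 236 to 1159 without 1 library. The member calls moved from 1 to 2 with no filter and to 0 or 1 without 1 library, also over all transcripts. For nerd-1 against WT the 6 calls became 146 with DESeq2, 640 with no filter, 17 with the block after exchanging the cpsf30-1 numbers (added after seeing the data), 10 over all transcripts, 2 without TMM, 0 with 4 libraries, with the block or at 0.01, and 0 to 125 without 1 library; member calls were 1 with no filter and otherwise 0. For cpsf30-1 against nerd-1 the 1503 calls became 3021 with no filter, 2287 with 4 libraries, 409 with the block, 2440 with the exchanged block, 225 at 0.01 and 0 to 2304 without 1 library. Its 1 member call became 2 with DESeq2, a stricter filter, 4 libraries, the transcript with the highest total or all transcripts, 3 with no filter or the exchanged block, 0 with the block or at 0.01, and 0 to 2 without 1 library. The 2 calls over all transcripts became 0 with the block or at 0.01 and 0 to 3 without 1 library. The cause was not tested.

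The block is not a pairing shown by the data: deviations of same-numbered libraries correlated at -0.311 (WT and cpsf30-1), -0.00493 (WT and nerd-1) and -0.00103 (nerd-1 and cpsf30-1).

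No value that passed the test turned its direction. Without 1 library, log2 differences of uncalled windows turned in cpsf30-1 against WT for MYC2 (-0.85 to 0.14), JAZ6 (-0.85 to 0.06), JAZ3 (-0.14 to 0.67), AOC1 (-0.75 to 0.42), the window on COI1 exons (-0.06 to 0.18) and that on NINJA exons (-0.56 to 1.68). In nerd-1 against WT they turned for JAZ1 (-0.24 to 0.37), MYC2 (-0.80 to 0.33), JAZ3 (-0.67 to 0.10), JAZ12 (-0.08 to 0.27), VSP1 (-3.22 to 5.87), MYC3 (-0.09 to 0.30), JAR1 isoform 4 (-0.53 to 0.28) and the window on AOC4 exons (-0.55 to 0.26). In cpsf30-1 against nerd-1 they turned for MYC2 (-0.67 to 0.47), LOX4 (-0.46 to 0.42) and the window on NINJA exons (-1.16 to 0.65). MYC2 turned to 0.17 there with the lowest count of 9 neighbouring windows subtracted (added after seeing the data), and the window on NINJA exons to -0.15 with the exchanged block. AOC2 passed there with DESeq2 (adjusted p = 0.0323), no filter (0.0130), a stricter filter (0.0455), 4 libraries (0.0274) and the exchanged block (0.0487). With 2 libraries per genotype, windows of a few counts cannot show small differences.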

Other observations

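Windows past 2 further pathway genes, chosen after their values were seen and too low for the filter, were read mostly in cpsf30-1. LOX6, a lipoxygenase of the same family as LOX2, held 3 and 2 counts (WT), 2 and 0 (nerd-1) and 21 and 11 (cpsf30-1). ACX1, an acyl-CoA oxidase that shortens the jasmonate precursor in the peroxisome, held 0 and 0 (WT), 1 and 1 (nerd-1) and 10 and 14 (cpsf30-1). Neither window has another annotated gene. In the fit with no filter, edgeR gave ACX1 an adjusted p of 0.0200 in cpsf30-1 against WT and 0.167 in cpsf30-1 against nerd-1, and LOX6 one of 0.176 and 0.0473. These values of ACX1 and LOX6 do not support the pattern, since both genes were chosen for it. Other pathway genes passed in that edgeR fit as well, in both directions. Against nerd-1, OPR1 (adjusted p = 1.16e-05) and JOX3 (0.00277) were higher in cpsf30-1. JAM1 (0.00442), AIM1 (0.00757) and JOX4 (0.0251) were lower there. Of the JOX3 counts, 37 lay in cpsf30-1 replicate 2. The window past PDF1.3, a defensin gene beside PDF1.2b, held 7 and 4 counts (WT), 0 and 1 (nerd-1) and 0 and 0 (cpsf30-1).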
